A study of Arabidopsis thaliana with 16 samples.

Results

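AT4G37295 is an Arabidopsis thaliana gene, described here as a peptide gene downstream of LBD16, and its transcript was followed in roots across 8 treatments. It was found through the probe annotation of the array: 1 probe set is listed for AT4G37295 and for no other gene, which makes it 1 of 13355 genes that have a probe set of their own among 22746 probe sets tested. Neither the annotation nor the reference gene table used here gives AT4G37295 a symbol or a function beyond its locus, so that it encodes a peptide is background that these data do not test.

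All roots came from 5-day-old seedlings of 1 genotype, gLBD16:GR in the lbd16-1 lbd18-1 lbd33-1 triple mutant. In this genotype LBD16 is fused to the glucocorticoid receptor (GR) and is driven by the regulatory region of LBD16 itself. Seedlings were treated for 4 h with 2 µM dexamethasone (DEX), 10 µM cycloheximide (CHX), 1 µM of the synthetic auxin NAA, every combination of these, or a mock treatment of 0.1% DMSO. Each of the 8 groups had 2 arrays, which the series describes as independent sets of RNA. Roots without the fusion and roots of a wild type were not analysed here, so a response to DEX itself cannot be told apart from one to LBD16, and every group carries the mutations in LBD16, LBD18 and LBD33. In whole roots, a change in the number of cells that express the gene and a change of RNA per cell cannot be told apart.

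LBD16 is a transcription factor of the LOB-domain family that auxin switches on in founder cells of lateral roots, the pericycle cells from which new roots arise. A GR fusion stays in the cytoplasm until DEX binds it and then enters the nucleus, so DEX starts the action of LBD16 at a chosen time. CHX stops protein synthesis, and a transcript that still rises with DEX under CHX does so without newly made proteins as far as the block is complete. Small secreted peptides act between neighbouring root cells, where they bind receptor kinases at the cell surface, and some of them set how far apart founder cells form.

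Levels are intensities, in the scaled units of the deposited table, in which array medians ran from 150.9 to 174.9 in the groups without CHX and from 179.3 to 189.3 in the groups with CHX. PYK10, the only 1 of 9 chosen root marker genes with a listed probe set, measured 13150 to 30560 over all 16 arrays. It fell in each of the 4 comparisons of CHX, by -0.53 against mock to -0.83 against NAA on the log2 scale, and its part in the CHX results was not tested. None of the 6 chosen markers of green shoots and flowers had one, so shoot tissue was not checked.

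AT4G37295 was lowest in mock roots, at 109.64 and 114.51 in the 2 arrays. It measured 284.69 and 209.26 with DEX. NAA gave 2314.5 and 2092.2, and NAA with DEX gave 4573 and 4853.4. These 4 pairs of arrays did not overlap with each other, with the means in the order mock, DEX, NAA, NAA+DEX.

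Under CHX the levels lay closer together. CHX alone gave 729.16 and 673.72, and DEX+CHX gave 1862.9 and 2249.4. NAA+CHX measured 724.9 and 846.35, and NAA+DEX+CHX measured 3285.1 and 3013.8. Both groups with DEX lay above both groups without it, whereas the arrays of CHX and NAA+CHX overlapped.

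**Figure D1:**
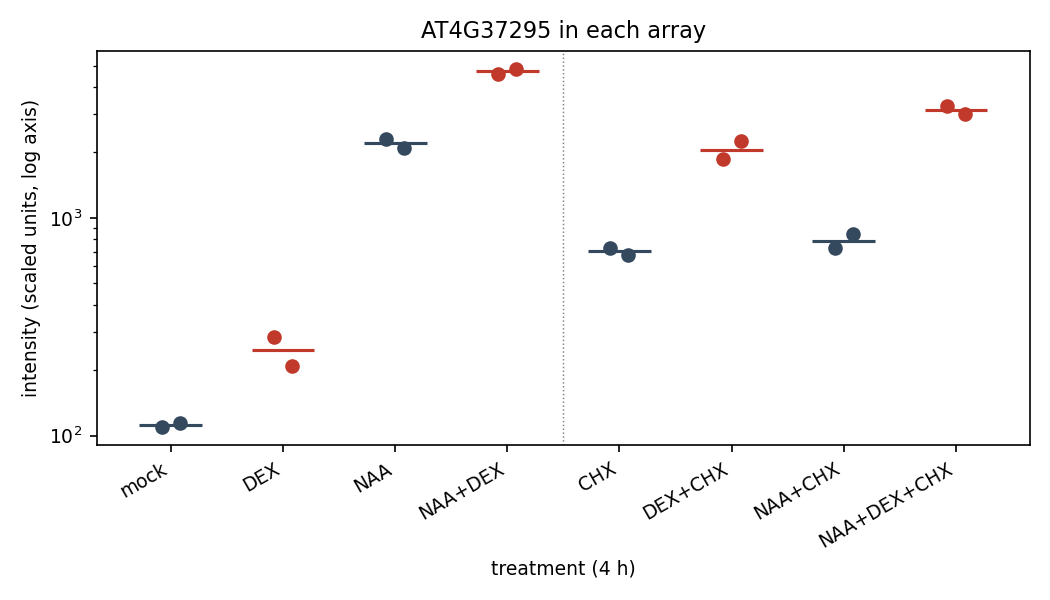
Intensity of the AT4G37295 probe set (log axis, scaled units) in each of the 16 arrays, by treatment. Points are arrays, horizontal bars are means of 2 arrays, red marks groups with DEX, and the dotted line separates groups without and with CHX. The level runs from 112.1 in mock roots to 4713 in NAA+DEX roots.

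Ordered by mean level, the groups ran from mock (112.1 ± 3.45, SD, n = 2 here and below) over DEX (247 ± 53.3), CHX (701.4 ± 39.2), NAA+CHX (785.6 ± 85.9), DEX+CHX (2056 ± 273), NAA (2203 ± 157) and NAA+DEX+CHX (3149 ± 192) to NAA+DEX (4713 ± 198). Neighbours in this order that did not differ beyond their spread were CHX and NAA+CHX, 84.19 units apart, and DEX+CHX and NAA, 147.2 units apart. In both cases the gap was smaller than the sum of the SDs (125.1 and 430.5) and the arrays overlapped. The other 5 gaps exceeded the sum of the SDs.

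The study asked which genes LBD16 acts on first, a question that DEX under CHX addresses. DEX raised AT4G37295 from 701.4 to 2056 with CHX alone and from 785.6 to 3149 with NAA and CHX. On the log2 scale of intensity + 16, on which all changes below are given, the rises were 1.52 (2.88-fold, standard error (SE) 0.16, adjusted p = 0.0061) and 1.98 (3.96-fold, SE 0.16, adjusted p = 0.00054) in limma, adjusted over all probe sets. The lowest array with DEX was 2.55 times the highest without it in the first comparison, and 3.56 times in the second. Both arrays with DEX lay above both without it, by any margin, for 14.6% and 15.2% of all probe sets. In these comparisons 0.0528% and 0.0923% of all probe sets rose, and AT4G37295 had the 7th and the 8th largest rise. These ranks and those below are by size of change over all probe sets, including those that did not pass the test. Averaged over both auxin states the rise under CHX was 1.75 (3.37-fold, SE 0.11, adjusted p = 4.2e-05), in a comparison where 0.119% of probe sets rose. AT4G37295 was taken up with this rise already known, so the test describes it and is no independent support. The call in DEX+CHX against CHX was lost without CHX replicate 2 (1.47, adjusted p = 0.085) and without DEX+CHX replicate 2 (1.39, adjusted p = 0.1).

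Without CHX the same gene responded to DEX in roots given auxin. NAA+DEX against NAA was a rise of 1.09 (2.13-fold, SE 0.16, adjusted p = 0.0039), in intensity the step from 2203 to 4713. There 1.22% of probe sets rose, and AT4G37295 had the 204th largest rise. Both arrays with DEX lay above both without it, as they did for 21.6% of probe sets. DEX against mock gave 1.02 (2.03-fold, 95% interval 0.67 to 1.38, adjusted p = 0.071), which did not pass the threshold of 0.05, although both arrays with DEX lay above both mock arrays. In that comparison 0.0396% of probe sets rose, and 13.9% had both DEX arrays above both mock arrays. The change of AT4G37295 was the 75th highest there. With mock replicate 2 left out the change was 1.05 and passed (adjusted p = 0.045), in a fit whose calls over all probe sets went from 12 to 256. The mean over both auxin states was a rise of 1.06 (2.08-fold, SE 0.11, adjusted p = 0.0017), and 0.624% of probe sets rose in that comparison.

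Whether the DEX effect on AT4G37295 differed between backgrounds was tested by interactions. DEX by CHX gave 0.70 (95% interval 0.34 to 1.05, unadjusted p = 0.0012, adjusted p = 0.18), from a mean DEX effect of 1.06 without CHX to one of 1.75 with it, and did not pass in this model. It passed with a pseudocount of 64 (0.75, adjusted p = 0.025). DEX by NAA gave 0.26 over both CHX states (95% interval -0.09 to 0.62, adjusted p = 0.78). Within the arrays without CHX it gave 0.07 (95% interval -0.43 to 0.57, adjusted p = 0.95), so the log2 change with DEX was 1.02 without auxin and 1.09 with it. Within the arrays with CHX it gave 0.46 (95% interval -0.04 to 0.96, adjusted p = 1). The DEX by NAA intervals therefore leave room for differences of up to 0.96 log2 units.

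Expressed as differences of intensity the 4 DEX steps were unlike. DEX added 134.9 units to mock roots and 2510 to NAA roots, 1355 to CHX roots and 2364 to NAA+CHX roots. The ratios of mean intensities were 2.2, 2.14, 2.93 and 4.01 in the same order. Without CHX, a similar ratio thus stood on starting levels that differed 19.7-fold between mock and NAA.

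**Figure D2:**
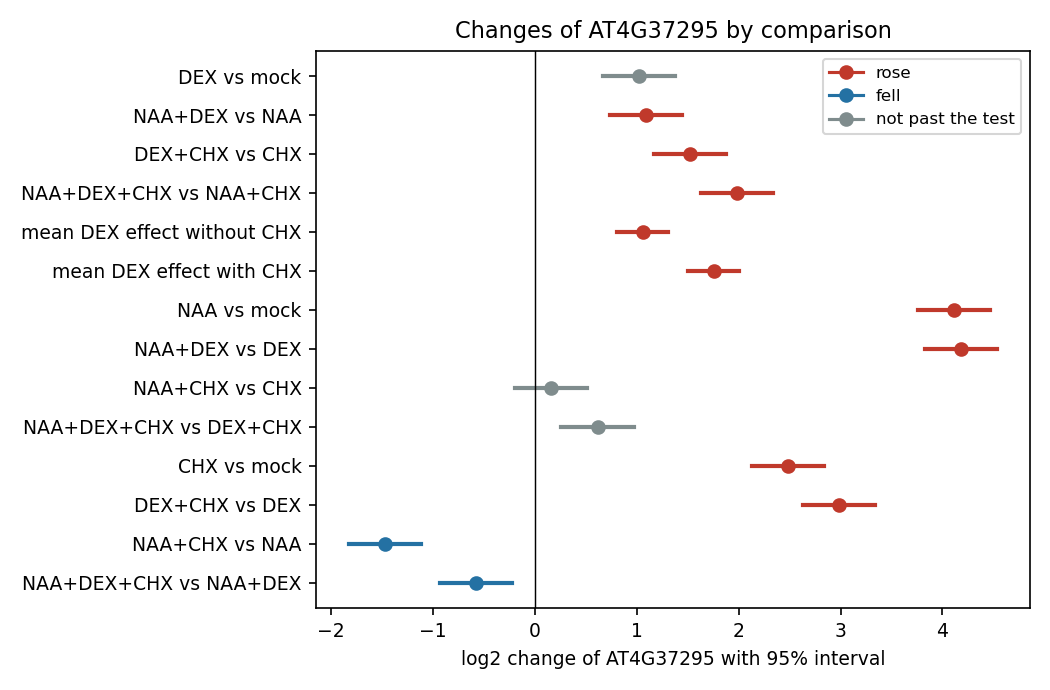
Log2 change of AT4G37295 in 14 comparisons, with 95% intervals from the model. Red marks rises and blue marks falls past the adjusted threshold, and grey marks comparisons that did not pass. NAA gave 4.11 and 4.18 without CHX, and 0.16 and 0.62 with it.

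Among the 12 comparisons between groups, NAA in roots without CHX gave the largest changes of AT4G37295. NAA raised the transcript by 4.11 (17.3-fold, SE 0.16, adjusted p = 9.6e-08) over mock and by 4.18 (18.2-fold, SE 0.16, adjusted p = 6.7e-08) over DEX. Of all probe sets 7.3% and 14.1% rose in these comparisons, and AT4G37295 had the 21st and the 18th largest rise. Under CHX, NAA gave 0.16 (95% interval -0.20 to 0.51, adjusted p = 0.77) without DEX and 0.62 (95% interval 0.26 to 0.97, adjusted p = 0.11) with DEX, and neither passed the test. Of all probe sets 0.0835% and 0.642% rose in these comparisons. In the second, both arrays with NAA lay above both without it, as they did for 22.7% of probe sets. That change passed, at an adjusted p of 0.032, with a pseudocount of 64. The difference itself was tested: the NAA by CHX interaction was -3.76 (SE 0.16, adjusted p = 2.3e-07), which 14.6% of probe sets passed in either direction.

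CHX moved AT4G37295 in opposite directions depending on auxin. It raised the transcript by 2.48 (5.6-fold, SE 0.16, adjusted p = 1.9e-07) over mock and by 2.99 (7.93-fold, SE 0.16, adjusted p = 4.2e-08) over DEX. From the higher levels in auxin-treated roots it lowered it, by -1.47 against NAA (2.77-fold, SE 0.16, adjusted p = 1.3e-05) and by -0.58 against NAA+DEX (1.49-fold, SE 0.16, adjusted p = 0.01). CHX changed much of the array: 23% and 24.2% of probe sets rose in the first 2 comparisons, and 28.6% and 29.8% fell in the others. AT4G37295 had the 1168th and the 905th largest rise in the first 2. The median change of all probe sets in the last comparison was -0.10, and with the arrays centred on their medians AT4G37295 gave -0.67 (adjusted p = 0.0051). That fall did not pass without NAA+DEX replicate 2 (-0.54, adjusted p = 0.056) or without NAA+DEX+CHX replicate 2 (-0.52, adjusted p = 0.063).

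The genes whose pattern was most like that of AT4G37295 were sought by Pearson's r over the 8 group means of log2 values, among 7302 genes with group means at least 1 log2 unit apart. The groups share their treatments, so r describes these arrays and no more. PUCHI came first, with r = 0.99 (Spearman's rho 0.93), and AT4G27510 followed with 0.96. PUCHI is an AP2/ERF transcription factor that acts early in lateral root primordia and restrains cell division there. Without mock and DEX, the 2 groups farthest from the median of AT4G37295, r with PUCHI was 0.96 over 6 group means, and that with AT4G27510 was 0.83.

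After these came AT4G32910 and EXPA20 (r = 0.95 each), AT2G38000 (0.94), AT4G25280 and AT5G16110 (0.93 each), AT2G28130 and AT5G18550 (0.92 each) and AT3G54000 (0.91). EXPA20 is an expansin, a protein that loosens cell walls. Of the 10 genes, 9 rose with NAA against mock and 9 with CHX against mock, where 7.3% and 23% of all probe sets rose. These counts largely follow from the choice of genes that resemble one raised by both treatments. With DEX under CHX, averaged over the auxin states, 2 rose (0.119% of all probe sets), PUCHI by 1.25 (SE 0.11, adjusted p = 0.00039) and EXPA20 by 0.86 (adjusted p = 0.014). Averaged without CHX, where 0.624% of probe sets rose, PUCHI rose by 1.15 (adjusted p = 0.00089) and AT3G54000 by 0.54 (adjusted p = 0.014). For the other 7 genes neither mean DEX effect passed. The groups with DEX also entered r, so the choice of genes bears on these DEX counts too, and they are no independent support. With r taken over the 16 arrays 8 of these 10 genes were again among the first 10, and with a pseudocount of 64 there were 9.

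PUCHI measured 64 and 47 in mock roots, 108 and 110 with DEX, 495 and 573 with NAA, and 1520 and 1513 with NAA and DEX. Under CHX it measured 276 and 291 alone, 793 and 673 with DEX, 297 and 319 with NAA, and 776 and 670 with both. As for AT4G37295, mock was the lowest group and NAA+DEX the highest, and the arrays of CHX and NAA+CHX were close, here without overlap. Its log2 changes with DEX were 0.83 (adjusted p = 0.12) in mock roots, 1.48 (adjusted p = 0.00035) with NAA, 1.32 (adjusted p = 0.0099) with CHX and 1.19 (adjusted p = 0.012) with both. AT4G37295 showed its largest DEX change with NAA and CHX and PUCHI with NAA alone, a difference between the genes that was not tested. The call of PUCHI in DEX+CHX against CHX was lost without any 1 of the 4 arrays compared (adjusted p of 0.061 to 0.11). That in NAA+DEX+CHX against NAA+CHX was lost without NAA+CHX replicate 1 (1.14, adjusted p = 0.084), NAA+CHX replicate 2 (1.24, adjusted p = 0.098) or NAA+DEX+CHX replicate 1 (1.08, adjusted p = 0.13).

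**Figure D3:**
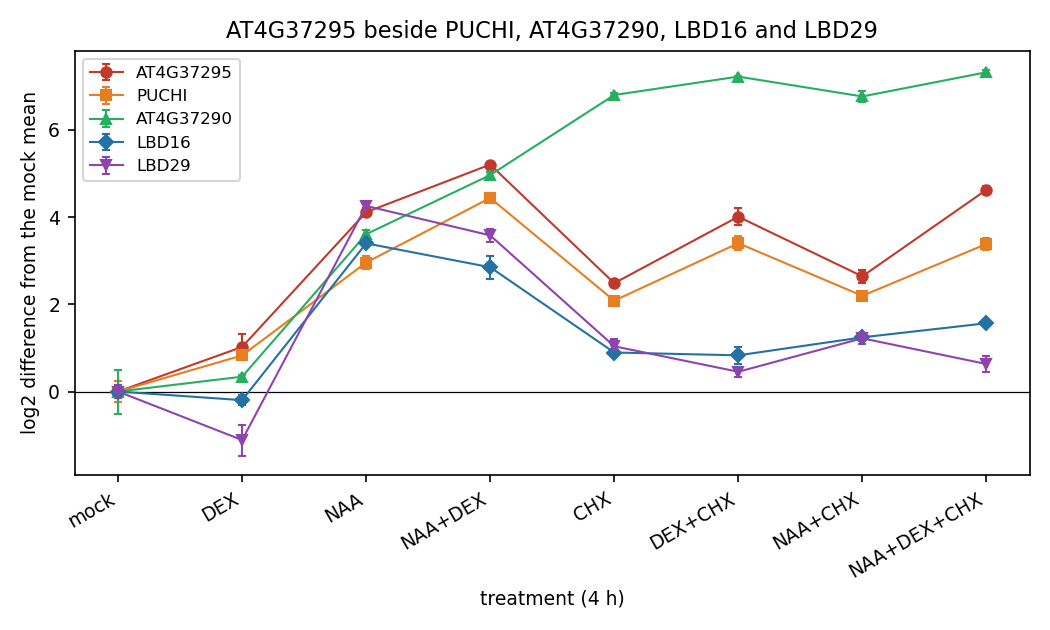
Log2 difference of each group mean from the mock mean for AT4G37295, PUCHI, AT4G37290, LBD16 and LBD29. Error bars are SDs of 2 arrays, and the lines only join the groups of a gene. AT4G37295 and PUCHI have profiles of a similar shape, with PUCHI lower in every treated group (2.96 against 4.11 with NAA), AT4G37290 lies at 6.77 or higher with CHX, and no rise of LBD16 or LBD29 with DEX passed the test.

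By the 4 DEX changes alone, and not the levels, the nearest genes to AT4G37295 were SWEET8, a sugar transporter, at a Euclidean distance of 0.93 in log2 units, and PUCHI, also at 0.93. DEP, AT1G64405, AT1G77280 and AT5G17340 followed at 1.14, 1.19, 1.25 and 1.47. Since these 4 changes chose the 6 genes, their DEX values are a description. The mean DEX effects under CHX, where 0.119% of all probe sets rose, ran from 1.10 for AT1G77280 to 2.37 for AT1G64405, with AT4G37295 at 1.75 between them. SWEET8 measured 6.83 to 37.2 on the 8 arrays without CHX, close to the pseudocount of 16, and without detection calls its changes there are not shown to stand above background. Without CHX the mean DEX effects that passed were those of PUCHI, AT1G64405 (0.84, adjusted p = 0.0022) and AT5G17340 (1.70, adjusted p = 0.00032). SWEET8 gave 0.47 there (adjusted p = 0.38) and DEP 0.31 (adjusted p = 0.38). DEP too was weak, at 17.6 to 33.1 in the mock and DEX arrays. It measured 32.4 to 51 with CHX alone or NAA+CHX, so the same limit on background applies. DEX by CHX passed for AT1G64405 (1.52, adjusted p = 0.0045), and DEX by NAA for AT5G17340 (1.24, adjusted p = 0.03), whereas neither passed for AT4G37295. Of all probe sets 0.0747% passed the first interaction and 0.0967% the second.

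**Figure D4:**
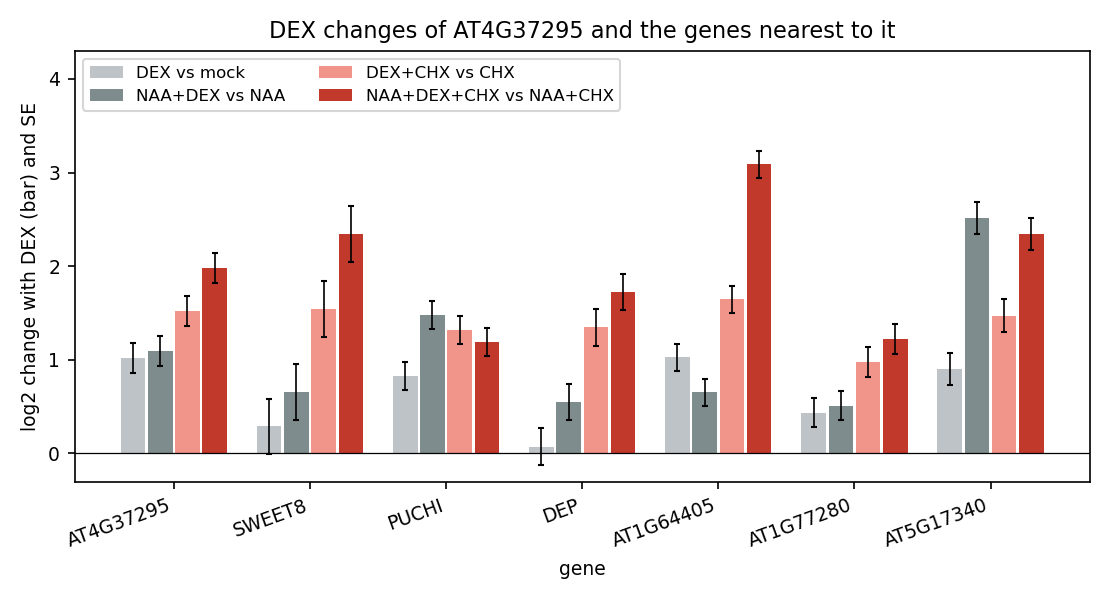
Log2 change with DEX in each of the 4 backgrounds for AT4G37295 and the 6 genes nearest to it by these changes. Bars start at 0 and error bars are SEs of the model. For AT4G37295 the changes were 1.02 in mock roots, 1.09 with NAA, 1.52 with CHX and 1.98 with NAA and CHX.

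Of the 3 protein-coding genes on either side of AT4G37295 in the reference gene order, only its direct neighbour AT4G37290 has a listed probe set. AT4G37290 measured 25 and 51 in mock roots and 50 and 51 with DEX, against 653 and 596 with NAA and 1567 and 1678 with NAA and DEX. With CHX it measured 5991 and 5689 alone, 7773 and 7878 with DEX, 5389 and 6039 with NAA, and 8603 and 8174 with NAA and DEX. Every array with CHX thus lay above every array without it, which was not so for AT4G37295. The same separation was seen for AT4G28460, AT2G23270 and AT3G10930, described below. Its share over all probe sets was not counted. In single comparisons of CHX, both arrays with it lay above both without it for 32.2% to 35.2% of all probe sets.

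Both neighbours rose with NAA, by 3.61 (adjusted p = 5.5e-07) for AT4G37290 against 4.11 for AT4G37295, where 7.3% of all probe sets rose. For both the NAA by CHX interaction passed (-4.08 and -3.76), as it did in either direction for 14.6% of all probe sets. CHX against mock raised AT4G37290 by 6.80 (adjusted p = 2.7e-10) and AT4G37295 by 2.48. DEX raised AT4G37290 by 1.36 in auxin-treated roots without CHX (adjusted p = 0.0029). Under CHX its changes with DEX were 0.42 and 0.55 (adjusted p = 1 and 0.67) and did not pass, beside rises of 1.52 and 1.98 for AT4G37295. That these changes differ between the neighbours was not tested. How far the 2 probe sets cross-hybridise was not tested either.

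LBD16, whose probe set may read the fusion, the mutant locus or both, measured 474.1 ± 42.7 in mock roots, 411.3 ± 36 with DEX and 5145 ± 102 with NAA. It gave -0.37 (adjusted p = 0.14) for the mean DEX effect without CHX and 0.13 (adjusted p = 1) with it, where AT4G37295 rose. LBD29, a related gene that auxin also induces, fell with DEX without CHX (-0.89, SE 0.13, adjusted p = 0.0061) and gave -0.59 (adjusted p = 0.24) with CHX. NAA against mock raised LBD16 by 3.40 and LBD29 by 4.26, and under CHX NAA gave 0.35 (adjusted p = 0.38) and 0.18 (adjusted p = 0.76). The NAA response was thus smaller under CHX for AT4G37295, AT4G37290, PUCHI, LBD16 and LBD29. The NAA by CHX interaction passed for each, as it did in either direction for 14.6% of all probe sets. AT4G37295 and PUCHI were the 2 of these 5 whose mean DEX effect with CHX passed, where 0.119% of all probe sets rose. AT4G37290 gave 0.49 there (SE 0.135, adjusted p = 0.42 in limma), which did not pass. Under CHX its arrays with DEX lay above those without DEX, both without and with NAA. The same held for 14.6% and 15.2% of all probe sets. AT4G37295 was taken up with its rise already known, so this count only describes the genes named.

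Around these genes, 5 lists were drawn up for auxin signalling to LBD genes, peptide receptors and their kinases, peptide ligands, founder cell signalling, and wall remodelling during emergence. Of their 47 genes 11 had a listed probe set, and CR4, which acts in founder cell divisions, was the only receptor kinase among them. In the mean DEX effect with CHX 1 of the 11 rose (PUCHI) and 0 fell, where 0.119% of all probe sets rose and 0.0264% fell, and their median change was 0.07 against -0.02 for all. Without CHX 2 rose (PUCHI and AT4G37290) and 1 fell (LBD29), where 0.624% rose and 0.985% fell, and the medians were -0.04 and -0.03. With CHX against mock, where 23% of probe sets rose and 27% fell, 8 of the 11 rose and 1 fell, RALFL34, a gene for a RALF-like peptide (-1.49, adjusted p = 5.8e-06).

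From the list of peptide ligands a further 3 loci, AT4G28460, AT2G23270 and AT3G10930, have no symbol in the reference used here. CHX against mock raised them by 7.75, 8.78 and 4.44, more than AT4G37295. DEX gave -0.35 to 0.07 in the mean effects, and none passed. With NAA against mock they gave 0.08, 0.30 and -0.90, and none passed, in contrast to the rise of 4.11 for AT4G37295. Of all 11 listed genes 5 rose with NAA against mock and 1 fell, where 7.3% of probe sets rose and 6.07% fell. AT5G66815, in the list of founder cell signalling, fell with NAA (-3.49, adjusted p = 2.5e-06) and rose with CHX by 1.85. AT5G14650, in the list of wall remodelling, rose with NAA (2.55, adjusted p = 0.0059). CR4 gave 0.24 and 0.07 with NAA and CHX and did not pass, at low intensities of 26 to 88 over all arrays.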

How the data were processed

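The deposited values are linear intensities, 1 for each probe set in each array, which the authors made with Affymetrix Expression Console 1.3, per the submitters' processing notes; the summary method, background correction and detection calls are not given in the sources used here. Each array had a 2% trimmed mean of 500 to 500.1, so the arrays had been scaled. After removal of 64 controls, 22746 of 22810 probe sets were analysed, without a filter, as log2(intensity + 16), which understates changes of weak genes. Names came from the probe annotation, updated through the reference gene table (assembly TAIR10.1): 13513 probe sets had 1 gene, 503 several and 8730 none listed. Where a gene had several, the one with the highest mean stood for it.

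All 16 arrays entered a model of 8 group means fitted with R 4.3.3 and limma 3.58.1, which left 8 residual degrees of freedom. The fit was also run on simulated data with independent noise and changes planted in DEX+CHX only. That run looked at DEX+CHX against CHX and bears on no other contrast. There were 19 contrasts (12 between groups, 2 mean DEX effects, 5 interactions), two-sided, with Benjamini-Hochberg adjustment over all probe sets of each and a threshold of 0.05. A p-value reflects only how far these arrays differ, which may be technical, and their number limits the precision. In 28 pairs of groups, arrays with a common replicate number deviated from their means with correlations of -0.06 to 0.07, so numbers were not treated as pairs. Which of 2 labelling kits served which array is not given in the labels.

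AT4G37295, the gene lists and the tests were chosen with earlier results of these data known. Other genes were named by rule: list members that passed a DEX comparison and a few kept whatever their values, the 3 genes on either side of AT4G37295, the 10 most like it in pattern and the 6 nearest in DEX changes. The remaining list members were named after their values were seen. Alternatives covered the pseudocount, scaling, a filter at intensity 100, the variance model, array weights, only the arrays compared, a replicate block and leaving out each array.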

Additional observations from a re-analysis of the deposited data

Results flagged for a closer look

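The effect of NAA on AT4G37295 differed between roots without and with CHX, with an interaction of -3.76 (SE 0.16, adjusted p = 2.3e-07 in limma). The same contrast gave -3.24 (adjusted p = 3e-07) for PUCHI, -4.08 (adjusted p = 3.1e-07) for the neighbouring gene AT4G37290, -2.68 (adjusted p = 1e-06) for LBD16 and -4.30 (adjusted p = 2.3e-07) for LBD29. Of all probe sets 14.6% passed this interaction in either direction. In each of these 5 genes NAA raised the transcript in roots without CHX, and 7.3% of all probe sets rose with NAA against mock. The 5 genes were picked, so their count describes only them.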

How the results depend on the processing

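For AT4G37295 the mean DEX effects with and without CHX, both NAA effects without CHX, the CHX effects other than that in NAA+DEX roots, and the NAA by CHX interaction kept their direction and their call in every setting run. With 1 array left out the mean DEX effect lay at 1.69 to 1.82 with CHX and at 0.95 to 1.16 without it, and the NAA by CHX interaction at -3.87 to -3.66. The replicate block left each of the 19 calls as it was, with 1.75 (adjusted p = 0.000206) for the mean DEX effect with CHX and 1.02 (adjusted p = 0.105) for DEX against mock. In models of only the 4 arrays compared, with few degrees of freedom, the values of NAA+DEX against NAA, DEX+CHX against CHX and NAA+DEX+CHX against NAA+CHX stayed at 1.09, 1.52 and 1.98 and did not pass (adjusted p = 0.088, 0.52 and 0.33). DEX against mock, at 1.02, passed with the filter on low values (adjusted p = 0.025), which tests fewer probe sets, and with a robust variance prior that follows intensity, called the trend below (adjusted p = 0.0045). NAA+DEX+CHX against DEX+CHX passed with a pseudocount of 64 (0.60), the filter (0.62) and the trend (0.62), and DEX by CHX with a pseudocount of 64 (0.75) and the trend (0.70). DEX by NAA without CHX turned sign with a pseudocount of 1 (-0.019), and its values with 1 array left out were -0.14 to 0.28, among them -0.003 without NAA replicate 2. Other ranges with 1 array left out were 0.81 to 1.23 for DEX against mock, 1.39 to 1.66 for DEX+CHX against CHX and -0.64 to -0.52 for NAA+DEX+CHX against NAA+DEX. For AT4G37290, DEX against mock gave -0.017 without mock replicate 1, and its values with 1 array left out ran from -0.017 to 0.70. Of the 11 listed genes, 2 were called for DEX with CHX under the trend, against 1 as reported, and for DEX without CHX the 3 became 4 under the trend and 1 in a model of only the arrays compared. The cause of these changes was not tested beyond the numbers of probe sets, arrays and degrees of freedom named. No detection calls were used, so how far low values stand above background is not known.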
